A study of Mus musculus with 8 samples.

Results

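Marker genes of the loop of Henle and the distal tubule, 10 in all, were examined in sorted nephron progenitors of mouse kidneys that carried floxed or unfloxed Hdac1 and Hdac2 alleles. They were Umod, Bsnd, Kcnj1, S100g, Calb1, Emx1, Sim1, Sim2, Ppp1r1b and Wfdc2. Members were found by matching the RefSeq accession of each array probe to these 10 symbols, which gave 13 of the 55681 probes (S100g, Sim2 and Wfdc2 have 2 probes each) and 10 of the 20887 gene symbols on the array. All cells carried a Six2-Cre transgene with enhanced green fluorescent protein (Six2CreEGFP), came from C57BL/6 embryos at embryonic day 15.5 and were sorted for that fluorescence. The wildtype group held 4 pools with unfloxed alleles (HDAC1&2+/+) and the mutant group 4 pools with floxed alleles (HDAC1&2f/f), in which Cre under Six2 control removes both histone deacetylases, so that the deletion is limited to cells that have expressed Six2 and to their descendants. The number of embryos in a pool is not stated, and p-values measure only the spread between these pools. Each array compared the Cy5-labelled RNA of 1 pool with Cy3-labelled RNA of wildtype pool 1, and a value is the log2 ratio of Cy5 over Cy3 unless it is called a level or a difference. A ratio of 0 therefore means the level of wildtype pool 1, and the array of that pool held the same RNA in both dyes.

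The thick ascending limb of the loop of Henle reabsorbs salt without water, and the distal convoluted tubule behind it fine-tunes sodium, calcium and magnesium. Both arise from Six2-expressing progenitors, through the renal vesicle and the S-shaped body, whose distal part gives these segments. Uromodulin, potassium channels and chloride channel subunits mark the mature limb, calbindins the distal tubule, and homeobox and bHLH-PAS transcription factors its precursors. Calb1 and Wfdc2 are also known from the ureteric bud, the source of the collecting ducts, and are not specific to the distal nephron.

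No member passed the test over all genes. In limma, with Benjamini-Hochberg adjustment over 22662 genes and a threshold of 0.05, 0 of the 9 members tested passed, where 10 genes (0.0441%) of all those tested did, and 0 of their 12 kept probes passed over the 30364 kept probes, where 8 (0.0263%) did. The pool numbers were taken to pair the samples from correlations in these same data, not from a label. With the pool number as a block Kcnj1, S100g and Sim2 fell and 0 members rose. The second probes of S100g and Sim2 did not pass with the block. Without pool 1, or without pools 3 and 4, of both groups 0 members passed with it. Among all genes tested, 34 (0.15%) passed with the block, of which 26 (0.115%) fell and 8 (0.0353%) rose. All 6 members with a lower mutant mean (Umod, Bsnd, Kcnj1, S100g, Emx1 and Sim2) were lower in each of the 3 pairs, a pattern of 17.4% of all genes. The 3 with a higher mean (Calb1, Ppp1r1b and Wfdc2) were higher in each pair, a pattern of 23% of all genes. Both statements hold for the probe that stands for each gene. The second probes of Sim2 (-0.42, 0.13 and 0.02) and Wfdc2 (-0.24, -0.03 and 0.17) changed sign between pairs. Sim1 was too dim to be tested. In pools of cells, fewer cells of a type and less RNA per cell cannot be told apart.

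The sequences before the RefSeq transcription starts are shown for 3 of these 6 lower members, Umod and the pair with the largest differences, since a shared sequence feature was looked for among members that moved together. Each line holds the 250 bases before the start, in the direction of transcription, from RefSeq on GRCm38.p6, and is in lower case throughout, since none of the 5 motifs reported here lay in these 3 stretches. The Umod stretch is chr7:119479263-119479512 on the minus strand, that of Kcnj1 chr9:32393735-32393984 on the plus strand, and that of S100g chrX:162964600-162964849 on the minus strand.
Umod: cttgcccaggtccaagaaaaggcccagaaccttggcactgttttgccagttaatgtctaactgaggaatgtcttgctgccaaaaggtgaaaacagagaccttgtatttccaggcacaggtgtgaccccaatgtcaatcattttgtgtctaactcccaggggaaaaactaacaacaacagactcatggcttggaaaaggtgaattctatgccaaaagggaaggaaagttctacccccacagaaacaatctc
Kcnj1: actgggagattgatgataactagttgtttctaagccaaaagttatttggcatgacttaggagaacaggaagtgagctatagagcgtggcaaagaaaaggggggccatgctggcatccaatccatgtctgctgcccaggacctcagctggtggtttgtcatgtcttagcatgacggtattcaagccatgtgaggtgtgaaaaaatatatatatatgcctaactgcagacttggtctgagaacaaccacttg
S100g: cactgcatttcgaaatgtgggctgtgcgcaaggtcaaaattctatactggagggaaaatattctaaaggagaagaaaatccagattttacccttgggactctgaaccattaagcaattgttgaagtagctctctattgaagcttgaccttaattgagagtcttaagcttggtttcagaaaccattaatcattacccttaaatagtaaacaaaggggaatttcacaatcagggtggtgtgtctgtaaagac
The table held windows of 300 bases, 250 before and 50 after the start, for 6 of the 10 members (Umod, Kcnj1, S100g, Emx1, Sim1 and Wfdc2, the last with 2 starts). Matches on both strands of these windows are given for 5 motifs, and no match overlapped one of another motif. The TATA box TATAAA was in the windows of S100g, at the start itself, and Sim1 (13.6% of all 32851 windows), and the AP-2 motif GCCNNNGGC in those of Umod, Emx1 and Wfdc2, each time after the start (16.6% of all). The estrogen-related receptor element TCAAGGTCA, the octamer ATGCAAAT and the SIM/ARNT core TACGTG were in no member's window and in 0.423%, 1.74% and 3.23% of all windows. The windows of S100g, Kcnj1, Sim1 and Umod were poorer in G and C than the median window of 52.7%, at 41.0%, 43.7%, 46.0% and 47.3%. Those of Wfdc2 and Emx1 were richer, at 65.3% and 74.0%. The Umod window held 0 CpG dinucleotides, Kcnj1 2 and S100g 3, where the median window held 7 and that of Emx1 37. The matches are letters in these windows, and no binding was measured here.

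Arrays were compared before any averaging. Over 5784 probes of middle brightness, Cy5 levels of pools 3 and 4 of a group differed by a median absolute deviation of 0.0567 (wildtype) and 0.0602 (mutant), inside the range of 0.0457 to 0.0997 that Cy3, the same RNA on every array, gave over 28 pairs of arrays. Their mean was therefore counted as 1 sample, which left 3 samples per group. The mutant 1 array stood apart, at 0.298 to 0.399 from each of the others, against 0.110 to 0.189 for the other 19 pairs. On the wildtype 2 array 48627 probes were well above background in Cy5, against 28150 to 33982 on the others. Six2 and Eya1, defining genes of the sorted progenitors, had mean log2 Cy5 levels of 14.5 and 14.9 and differences of -0.13 ± 0.14 and 0.05 ± 0.10 (SE), and the deleted genes Hdac1 and Hdac2 differed by -0.30 ± 0.09 and -0.13 ± 0.14 (SE); none of these 4 passed in limma (adjusted p = 0.839, 0.916, 0.476 and 0.84). Other progenitor genes moved: of the 18 on that list 16 had a lower mutant mean. Of these, 10 had an unadjusted p under 0.05 in limma (2.78% of all genes had this and a lower mean). Cited1 (-2.72 ± 0.13 SE, adjusted p = 0.0028 in limma) and Traf1 (-1.85 ± 0.10 SE, 0.0029) fell. Where the Hdac1 and Hdac2 probes lie relative to the deleted exons was not analysed here.

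**Figure D1:**
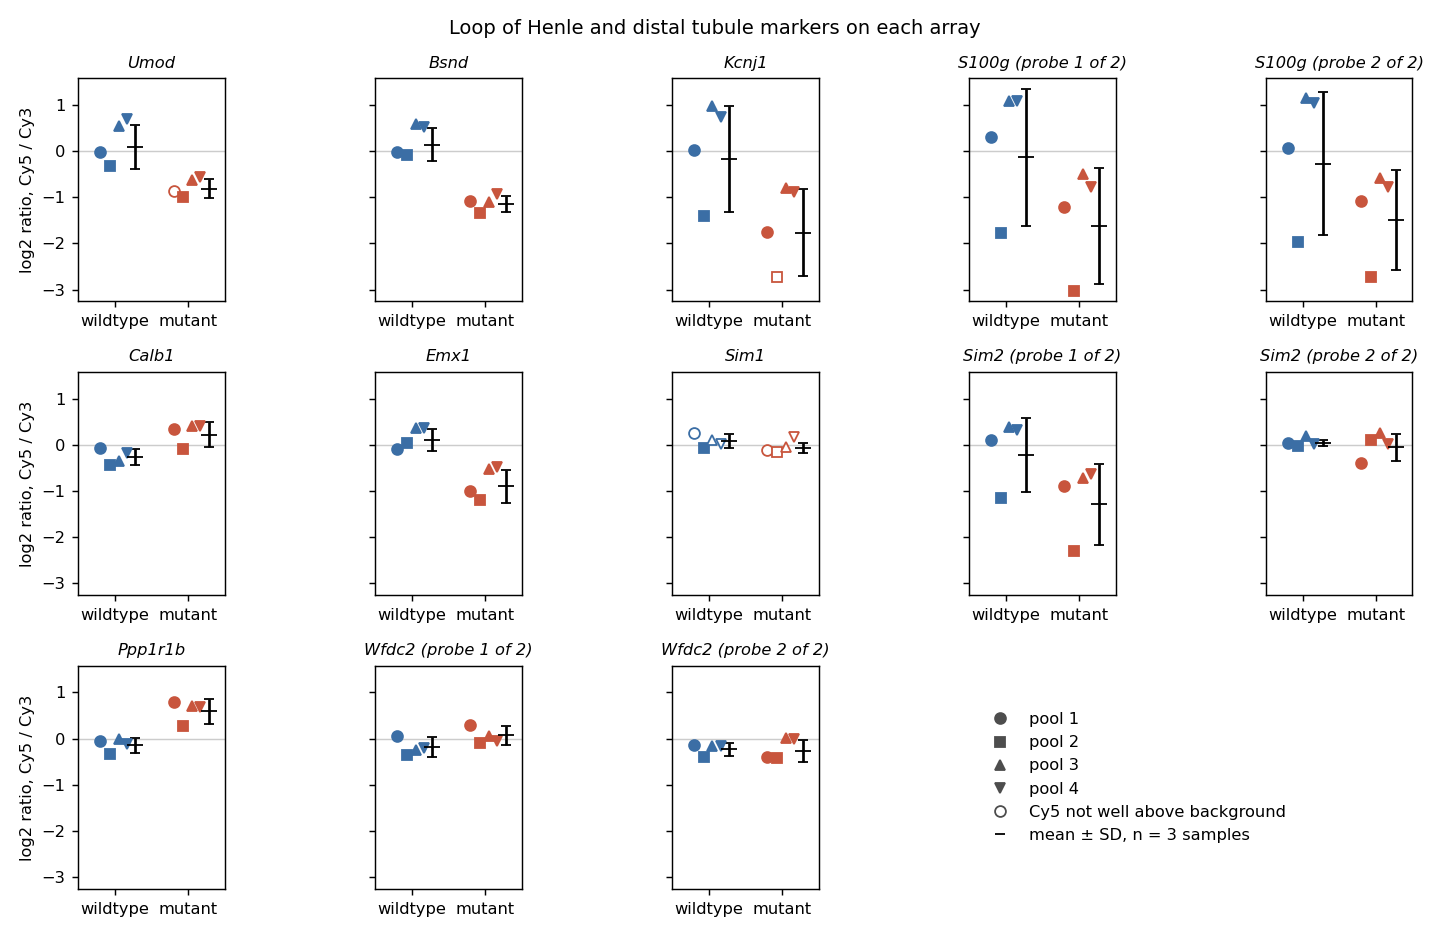
Log2 ratio of Cy5 over Cy3 (vertical axis) of the 13 probes on the 8 arrays, wildtype in blue and mutant in red, with 1 symbol per pool, open where Cy5 was not well above background, and the mean ± SD of the 3 samples beside each group. The 4 mutant arrays lie below the 4 wildtype arrays for Umod, Bsnd and Emx1 and above them for Ppp1r1b. For Kcnj1, S100g and the first Sim2 probe the groups overlap, and both pool 2 arrays lie far below the rest of their group.

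Umod encodes uromodulin, the protein that the thick ascending limb secretes in bulk into urine. It read -0.03, -0.31, 0.55 and 0.69 in wildtype pools 1 to 4 and -0.86, -0.99, -0.63 and -0.56 in mutant pools 1 to 4. Every mutant array was below every wildtype array, though the spot was dim. Its background-subtracted Cy5 brightness was 112 to 260.5 on wildtype and 14.5 to 66.0 on mutant arrays, and on mutant 1 it was not well above background. The means were 0.09 ± 0.48 and -0.81 ± 0.20 (SD, n = 3), a difference of -0.91 ± 0.24 (SE) that depends on the offset added to dim spots: it was -2.14 with the scanner software's ratios. It did not pass in limma (adjusted p = 0.41 without and 0.0855 with the block).

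Bsnd encodes barttin, an accessory subunit of basolateral chloride channels. It read -0.03, -0.10, 0.58 and 0.52 in wildtype pools 1 to 4 and -1.07, -1.35, -1.10 and -0.93 in mutant pools. This was the widest gap between the groups among the members, with all 8 arrays well above background. The means were 0.14 ± 0.35 and -1.14 ± 0.18 (SD, n = 3), a difference of -1.29 ± 0.19 (SE) or 41.0% of wildtype. Its unadjusted p in limma, 0.000261, was the lowest of the members, and the adjusted p was 0.134 without the block and 0.0526 with it.

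Kcnj1 encodes ROMK, the potassium channel that returns potassium to the lumen of the thick limb. It read 0.02, -1.41, 0.96 and 0.74 in wildtype pools 1 to 4 and -1.75, -2.72, -0.80 and -0.88 in mutant pools. Wildtype pool 2 lay below mutant pools 3 and 4, so the groups overlapped, and in mutant pool 2 the spot was not well above background. The means were -0.18 ± 1.15 and -1.77 ± 0.94 (SD, n = 3), a difference of -1.59 ± 0.65 (SE, adjusted p = 0.671 in limma). The difference also depends on that offset and was -2.07 with an offset of 16. With the scanner software's ratios it was -3.34. Within pairs, in the main setting, it was -1.77 (pool 1), -1.31 (pool 2) and -1.70 (pools 3 and 4). With the block the standard error was 0.12 and Kcnj1 fell (adjusted p = 0.0325).

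S100g encodes calbindin-D9k, a small calcium-binding protein of calcium-transporting epithelia. Its brighter probe read 0.30, -1.79, 1.09 and 1.09 in wildtype pools 1 to 4 and -1.21, -3.03, -0.50 and -0.77 in mutant pools. Wildtype pool 2 lay below every mutant pool except pool 2. The means were -0.13 ± 1.48 and -1.63 ± 1.25 (SD, n = 3), a difference of -1.50 ± 0.85 (SE, adjusted p = 0.786 in limma), and with the block S100g fell (SE 0.12, adjusted p = 0.0329). The other probe ran in parallel, from -1.97 to 1.14 in wildtype and from -2.72 to -0.58 in mutant arrays, and a difference of -1.22. In the fit over the 30364 kept probes, where the block called 35 probes (0.115%), 29 of them lower (0.0955%), the brighter S100g probe passed with it (adjusted p = 0.0406) and the other did not (0.131).

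Calb1 encodes calbindin-D28k, a larger calcium buffer of the distal tubule and the ureteric bud. It read -0.08, -0.43, -0.35 and -0.18 in wildtype pools 1 to 4 and 0.35, -0.10, 0.40 and 0.41 in mutant pools. The groups overlapped by 1 sample, mutant pool 2, which lay just below wildtype pool 1. The difference was 0.48 ± 0.17 (SE), 139% of wildtype, and did not pass in limma (adjusted p = 0.579 without and 0.187 with the block). With arrays centred on spike-in controls, which moved the median of all genes to -0.25, the difference was 0.19 ± 0.24 (SE). Both calbindins thus differed in opposite directions within each pair, S100g by -1.51, -1.25 and -1.72 and Calb1 by 0.43, 0.33 and 0.67. The list of 21 ureteric bud and collecting duct genes, which holds Calb1, had a median difference of -0.02, with 12 lower and 9 higher. Of these 21, 4 had an unadjusted p under 0.05 in limma and a higher mutant mean (4.46% of all genes). With a lower mean there were 0 (2.78% of all genes). Beside Calb1 the 4 with a higher mean were Ret (0.66 ± 0.23 SE), Wnt9b (0.41 ± 0.09 SE) and Sox9 (0.41 ± 0.13 SE), named after their values were seen. The largest difference on the list went the other way, in Foxi1 (-0.83 ± 0.40 SE), also named after its value was seen. After adjustment 0 of the 21 passed, without the block or with it. The list's summed linear Cy5 level was 85369 to 117264 in wildtype and 89510 to 132136 in mutant samples, and its part in the Calb1 difference was not tested.

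Emx1 encodes a homeodomain transcription factor better known from the cerebral cortex. It read -0.10, 0.03, 0.35 and 0.37 in wildtype pools 1 to 4 and -0.99, -1.20, -0.52 and -0.49 in mutant pools, with no overlap. The means were 0.10 ± 0.24 and -0.90 ± 0.36 (SD, n = 3), a difference of -0.998 ± 0.21 (SE, adjusted p = 0.288 in limma, 0.0606 with the block), and -1.82 with the scanner software's ratios.

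Sim1 and Sim2 encode bHLH-PAS transcription factors related to Drosophila single-minded. The Sim1 probe was well above background in Cy5 on 1 of 4 wildtype arrays and 0 of 4 mutant arrays, at a brightness of 0.5 to 33.0, so no fold is given. The brighter Sim2 probe read 0.11, -1.14, 0.38 and 0.32 in wildtype pools 1 to 4 and -0.90, -2.30, -0.72 and -0.64 in mutant pools. The pool 2 array was the lowest of each group, as for most members, and wildtype pool 2 lay below 3 mutant pools, as for S100g. The difference was -1.06 ± 0.52 (SE, adjusted p = 0.753 in limma) and the pair differences were -1.01, -1.15 and -1.03, so that with the block Sim2 fell (SE 0.09, adjusted p = 0.0329). The second Sim2 probe did not share this. It read 0.03, -0.03, 0.20 and 0.02 in wildtype pools and -0.39, 0.11, 0.25 and 0.01 in mutant pools, a difference of -0.09 ± 0.16 (SE, adjusted p = 0.918 in the limma fit over probes, 0.805 with the block). Both carry the same accession, so the Sim2 result rests on 1 of 2 probes, and the mean of both gave a difference of -0.58.

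Ppp1r1b encodes DARPP-32, which inhibits protein phosphatase 1 when phosphorylated by protein kinase A. It read -0.04, -0.34, -0.01 and -0.11 in wildtype pools 1 to 4 and 0.79, 0.28, 0.72 and 0.69 in mutant pools, with no overlap. The means were -0.15 ± 0.17 and 0.59 ± 0.28 (SD, n = 3), a difference of 0.74 ± 0.16 (SE; 1.15 with the scanner software's ratios), which did not pass in limma (adjusted p = 0.316 without and 0.0681 with the block).

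Wfdc2 encodes a secreted protein of the whey acidic protein family. It was by far the brightest member, with Cy5 brightness of 22139 to 27740 at its brighter probe. That probe read 0.05, -0.36, -0.25 and -0.21 in wildtype pools 1 to 4 and 0.29, -0.09, 0.05 and -0.04 in mutant pools, a difference of 0.25 ± 0.15 (SE, adjusted p = 0.793 in limma). The other probe read -0.15, -0.39, -0.16 and -0.16 in wildtype and -0.39, -0.43, 0.02 and -0.01 in mutant pools, a difference of -0.04 ± 0.15 (SE). The groups overlapped at both probes, and the probes differ in sign.

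The groups did not overlap for 3 lower members (Umod, Bsnd and Emx1) and 1 higher member (Ppp1r1b), against 5.95% of all genes with no overlap and a lower mutant group and 8.72% with a higher one. The exact permutation test of 3 against 3 samples, two-sided, gave 0.1 for each of the 4, the smallest p it allows. Before adjustment, 4 members had a p under 0.05 in limma and a lower mutant mean (Umod, Bsnd, Kcnj1 and Emx1; 2.78% of all genes) and 2 a higher one (Calb1 and Ppp1r1b; 4.46%). Bsnd, Kcnj1, S100g and Sim2 were lower by at least 1 on the log2 scale, as were 84 genes (0.371%) in all. The median difference was -0.998 over the 9 members and 0.0017 over all genes tested. All 9 were well above background on 4 wildtype arrays and at least 3 mutant arrays, so none was kept through 1 group alone.

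**Figure D2:**
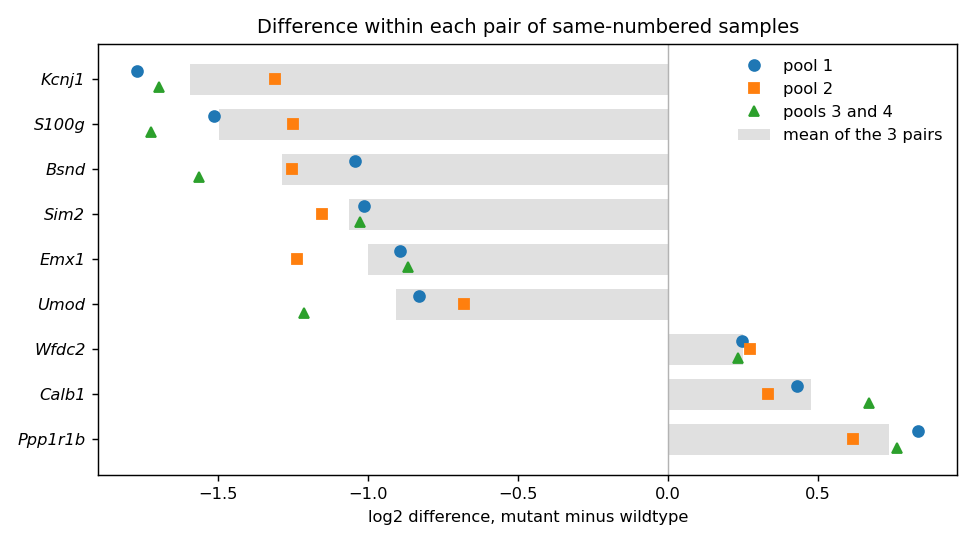
Log2 difference, mutant minus wildtype (horizontal axis), of the 9 members tested, with a symbol for each pair of same-numbered samples and a grey bar for the mean of the 3 pairs. At the probe that stands for each gene, the 3 pairs lie on 1 side of 0 for every member. Kcnj1 lies furthest to the left (-1.59) and Ppp1r1b furthest to the right (0.74).

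At the probe that stands for each gene, pool 2 was the lowest sample of each group for every member tested except Emx1. For Emx1 it was lowest in mutant samples only. The shift of pool 2 was largest for Kcnj1, S100g and the brighter Sim2 probe. In wildtype, pool 2 minus the mean of the other samples was -2.48 for the brighter S100g probe, -1.85 for Kcnj1 and -1.38 for the brighter Sim2 probe. In mutant samples the same difference was -2.11, -1.42 and -1.51. For Umod, Bsnd and Emx1 it was -0.61, -0.35 and -0.10 in wildtype and -0.27, -0.30 and -0.46 in mutant samples. Over all genes tested the median shift of pool 2 was -0.058 in wildtype and -0.0076 in mutant samples. Every marker list except the progenitor list (0.14 in wildtype and 0.22 in mutant samples) had a negative median shift in both groups. It was -0.74 and -0.18 for podocytes and -0.45 and -0.19 for the other segment genes. The proximal tubule list shifted most: the median shift of pool 2 over its 18 genes was -1.97 in wildtype and -1.05 in mutant samples. Its summed linear Cy5 level ran from 10224 to 54789 in wildtype and from 4698 to 20450 in mutant samples, and none of its defining markers was missing from the genes tested. Its part in the results for S100g, Kcnj1 and Sim2 was not tested.

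Without the wildtype 2 array the differences were larger for Kcnj1 (-2.21), S100g (-2.32) and Sim2 (-1.52), and stood at -1.11 for Umod, -1.40 for Bsnd, -1.03 for Emx1, 0.39 for Calb1, 0.64 for Ppp1r1b and 0.16 for Wfdc2. Without the mutant 1 array they were -1.60, -1.70 and -1.26 for the first 3 and -0.89, -1.32, -0.95, 0.41, 0.64 and 0.14 for the others. Leaving out mutant pools 3 and 4 also made the differences of Kcnj1, S100g and Sim2 larger, and leaving out some other samples made them smaller. Without mutant 2 the differences were -1.12 for Kcnj1, -0.79 for S100g and -0.56 for Sim2, and without wildtype pools 3 and 4 they were -1.07, -0.89 and -0.78. In limma 0 members passed in any of these fits. The 3 blocked calls did not all hold when a pair was left out. Without pool 1 of both groups, or without pools 3 and 4 of both groups, 0 members passed. Without pool 2 of both groups Kcnj1 (adjusted p = 0.0269) and S100g (0.0391) passed, and Sim2 did not (0.0684).

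The size of the differences of dim members depended on the background step. The main setting adds an offset of 50 brightness units to every spot, which by construction draws the ratios of dim spots towards 0. With an offset of 16 the difference was -1.25 for Umod, -2.07 for Kcnj1, -1.26 for Emx1 and 0.88 for Ppp1r1b. The scanner software's own ratios add no such offset and also differ in background subtraction and dye normalization. With them the difference was -2.14 for Umod, -3.34 for Kcnj1, -1.82 for Emx1 and 1.15 for Ppp1r1b. For the brighter S100g probe it was -1.66, and 0 members passed without the block or with it. The Kcnj1 value includes a mutant pool 2 spot below its own background (brightness -4.5).

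Cy3 gave each probe's technical spread at the level of wildtype pool 1, since it held that RNA throughout. The spread at dimmer mutant spots was not measured by it. The spread in Cy5 spans both groups and so includes the difference between them. Over the 7 arrays other than wildtype 2, the standard deviation of the log2 Cy3 level was 0.0393 to 0.108 for the 13 probes. In Cy5 it was 1.36 for Kcnj1, 1.38 and 1.32 for the S100g probes, 0.88 for the brighter Sim2 probe, 0.86 for Bsnd, 0.68 for Umod and 0.64 for Emx1. The second Sim2 probe (0.152 in Cy5 and 0.0816 in Cy3) and Sim1 (0.138 and 0.0894) varied least against their technical spread. On wildtype 2 the Cy3 levels of several dim probes lay lower than on every other array, for Umod at 6.58 against 7.45 to 7.65 and for Calb1 at 7.94 against 8.72 to 8.91. With that array included, the standard deviation in Cy3 was 0.345 for Umod (0.722 in Cy5). For the second Sim2 probe it was then 0.390 in Cy3 and 0.427 in Cy5.

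**Figure D3:**
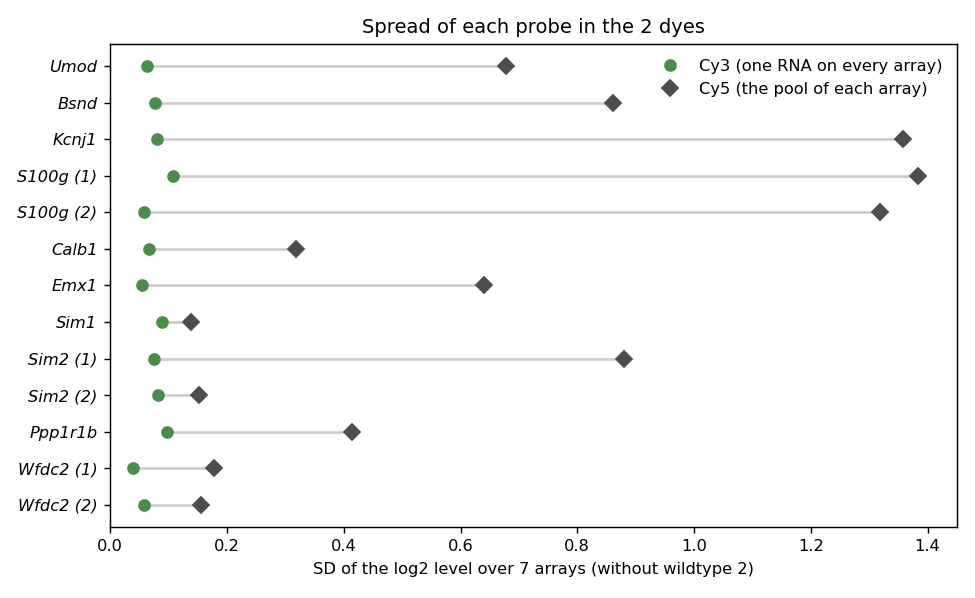
Standard deviation of the log2 level over 7 arrays (horizontal axis) for the 13 probes, in Cy3 (green circles, the same RNA on every array) and in Cy5 (grey diamonds, a different pool on each array). Cy3 lies at 0.108 or below for every probe, and Cy5 reaches 1.36 for Kcnj1 and 1.38 for the brighter S100g probe.

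The other genes of the segment were read from a list of 40, of which 33 could be tested. None passed in limma, without the block or with it. Before adjustment 3 had a p under 0.05 and a lower mutant mean (2.78% of all genes) and 2 a higher one (4.46%). The mutant mean was lower for 23 and higher for 10, with a median difference of -0.23 (0.0017 over all genes). In all 3 pairs 13 were lower (17.4% of all genes) and 6 higher (23%). Without the sample of wildtype pools 3 and 4 the median was -0.09, and without wildtype 2 it was -0.41. The transporters with the largest differences among those named here were Fxyd2, a regulator of the sodium pump (-1.16 ± 0.64 SE), Slc12a1, the sodium-potassium-chloride cotransporter of the thick limb (-1.09 ± 0.50), and Atp1b1, the beta subunit of the sodium pump (-0.90 ± 0.60). Sostdc1, a secreted BMP and Wnt antagonist, differed by -1.29 ± 0.60 (SE). Of the transcription factors, Irx1 differed by -1.26 ± 0.65 and Irx2 by -0.93 ± 0.53 (SE). Slc12a1 was well above background on 3 wildtype and 2 mutant arrays, and 3 more of the 33 (Cldn16, Klk1 and Casr) on fewer than 3 mutant arrays, so these 4 were kept through the wildtype group alone. Of the other bright genes of the list, the kinase gene Wnk1 stood at 0.02 ± 0.16 and Cox6b2, a cytochrome oxidase subunit, at 0.49 ± 0.14 (SE). With arrays centred on spike-in controls, which moved the median of all genes to -0.25, Wnk1 turned to -0.19.

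**Figure D4:**
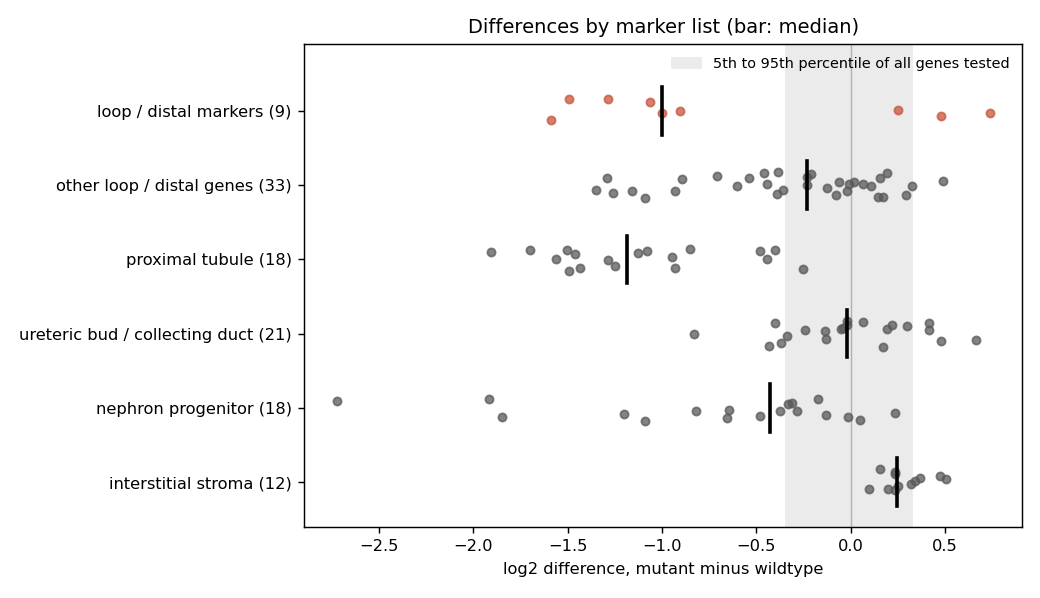
Log2 difference, mutant minus wildtype (horizontal axis), of each gene of 6 lists, with the number tested in brackets, a black bar for the median and a grey band for the 5th to 95th percentile of all genes (-0.34 to 0.33). The 6 lower members lie left of the band beside the proximal tubule genes (median -1.19), and the 3 higher members lie at 0.25, 0.48 and 0.74.

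Lists of neighbouring cell types are given beside these values. All 18 proximal tubule genes had a lower mutant mean, with a median of -1.19. In limma 0 of them passed without the block (0.0441% of all genes) and 4 with it, all lower (0.115% of all genes). Of the 18, Slc3a1, Spp2 and Ttr were well above background on fewer than 3 mutant arrays. These genes were thus kept through the wildtype group alone, where they were higher. The brightest members of this list, the scaffold gene Pdzk1 and the transcription factor gene Hnf4a, differed by -1.46 ± 0.79 and -1.51 ± 0.61 (SE). The ureteric bud and collecting duct list, on which Calb1 also stands, had a median of -0.02 over 21 genes, with 12 lower and 9 higher. With no overlap between the groups, 4 were higher (8.72% of all genes) and 1 was lower (5.95%). The brightest members of this list, Krt18 and Cdh16, differed by 0.30 ± 0.17 and -0.02 ± 0.32. The renal vesicle list had a median of -0.29 over 14 genes (Ccnd1 -0.41 ± 0.12, Wnt4 0.24 ± 0.11), the podocyte list -0.52 over 11 (Cdkn1c 0.11 ± 0.19, Tcf21 -0.31 ± 0.32) and the progenitor list -0.43 over 18 (Wt1 -0.37 ± 0.13). On the progenitor list Cited1 and Traf1 passed in limma without the block (0.0441% of all genes). With it Meox2 (-1.92 ± 0.23 SE) passed as well (adjusted p = 0.0313), where 0.115% of all genes passed and fell. These 3 genes are named for their calls, after their values were seen. The groups did not overlap for 10 of 18 progenitor genes, all lower (5.95% of all genes). Interstitial stroma stood at 0.24 over 12 genes (Col1a2 0.24 ± 0.17, Aldh1a2 0.34 ± 0.16), endothelium at 0.16 over 10 (Egfl7 0.30 ± 0.14, Cd34 0.27 ± 0.14), macrophages and leukocytes at 0.0145 over 9 (Csf1r 0.01 ± 0.25, Pf4 0.22 ± 0.17) and erythroid genes at 0.04 over 10 (Hba-a2 0.26 ± 0.23, Hba-a1 0.03 ± 0.27). The part of other cell types in the members' differences was not tested.

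The genes most like each member were found by the root mean square difference between the profiles over the 6 samples, each relative to its own mean, for the 7 members that spanned at least 1 on the log2 scale. Nearest to S100g were Hdc, which makes histamine (0.123), Pdzk1 (0.160) and Ugt2b38 (0.166). Nearest to Kcnj1 were the claudin gene Cldn2 (0.210), Sostdc1 (0.212) and Aadac (0.242), and nearest to Sim2 were Irx2 (0.0826), Serpina1a (0.0899) and Pipox (0.0924). Nearest to Bsnd were Pcsk2 (0.170), B3galt5 (0.186) and the member Emx1 (0.216). Nearest to Emx1 were Slc47a1 (0.0603), Atp13a4 (0.135) and a transcript without a symbol (0.157). Nearest to Umod were Kcnj5 (0.133), Slc22a19 (0.135) and another transcript without a symbol (0.139), and nearest to Ppp1r1b were Rgs10 (0.0568), Gstm6 (0.0707) and Rell2 (0.0767). The values describe these samples only.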

How the data were processed

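The data were 8 two-colour Agilent arrays. Per the file headers, the authors' scanner files hold spot and background intensity values from Agilent Feature Extraction 10.7.3.1; its background subtraction and dye normalization underlie their log ratios. The deposited value table holds log10 ratios of Cy5 over Cy3, which matched the scanner files' log ratios within 0.00498, so their scale and direction were settled. Here normexp (offset 50) and within-array loess were applied to the median spot signals in limma 3.58.1 (R 4.3.3). Probes that at least 3 of the 4 arrays of either group flagged as well above background in Cy5 were kept (30364 of 55681). Gene symbols came from RefSeq accessions (27509 probes matched), and the probe with the highest mean Cy5 level stood for a gene. Levels were taken after Aquantile scaling. Groups were compared with limma (two-sided), with Benjamini-Hochberg adjustment over all genes or all kept probes.

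Deviations from the group mean of same-numbered samples correlated with r = 0.495, 0.543 and 0.527 over 22328 genes, so the pool numbers were taken to pair the samples, from the data and not from a label. All arrays lie on 1 slide, 1 row for each group, so that an effect of the row and one of the genotype cannot be told apart. The members, gene lists, motifs and tests were chosen with earlier results of these data known. Named were all members, the other segment genes with the 8 largest differences and the 5 brightest, the 2 brightest of each other list, and the 3 genes nearest to a member; Hdac1, Hdac2 and Six2 served as label checks. Some genes and a motif that these rules give are not reported here. Fits were tested on simulated data with pair effects set much smaller than the pool 2 shifts of Kcnj1, S100g and Sim2. That test therefore does not bear on their blocked calls. The number of arrays limits the precision.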

Additional observations from a re-analysis of the deposited data

How the results depend on the processing

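Over 27 alternatives, 2 of them added after seeing the data (the block with offset 16 and with Feature Extraction log ratios), the 9 members kept the sign of their differences. Of 243 values 224 stayed on their side of the threshold and 19 passed it. Instead of 0 members, the replicate block called 3 genes and 3 probes. With offset 16 the block called 2 genes and 1 probe. Counting 8 arrays as separate samples called 3 genes (Bsnd, Emx1 and Ppp1r1b) and 2 probes. With the replicate block as well it called 9 genes, 9 probes and 12 of the other segment genes. Both settings treat pools 3 and 4 as independent. Except for the replicate block, the share of all genes called is not given for these alternatives. Their counts therefore have no background to be read against. The members' median of -0.998 became -1.66 with Feature Extraction log ratios, with the replicate block and those ratios also -1.66, and -1.39 when centred on spike-in controls. That centring moved the median of all genes to -0.25. With it the 3 higher members stood at 0.19 (Calb1), 0.50 (Ppp1r1b) and 0.05 (Wfdc2). Leaving out single samples or pools, the members' median lay between -1.20 and -0.78, that of the other segment genes between -0.41 and -0.09, and the counts called stayed at 0. In the replicate block without 1 pair, 0 to 2 members, 0 to 1 member probes and 0 to 4 other segment genes passed. The 4 passed without pool 2, Sostdc1, Fxyd2 and Slc12a1 among them. The Wnk1 difference turned to -0.19 when centred on spike-in controls, and to -0.026 with Feature Extraction log ratios, with and without the block. Leaving out samples or pools, Wnk1 lay between -0.11 and 0.18 (-0.021 without mutant pool 2). In the replicate block Wnk1 was -0.026 without pool 2 and -0.068 without pools 3 and 4. The causes were not tested. Aquantile scaling leaves ratios unchanged by construction. Signal over background limits Sim1, and Umod and Kcnj1 in mutants.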
